A study of Gossypium hirsutum with 45 samples.

Results

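Root and stem of unstressed cotton seedlings were compared across all measured genes. The tissues came from upland cotton (Gossypium hirsutum), variety Hengmian HD008, at the 3-leaf stage, raised in sterilized sand at 25 °C with 16 h of light and 8 h of dark. The comparison rests on 6 of the 45 libraries of the series: 3 of root and 3 of stem, both labelled CK and 0 min, so neither tissue had met the 10% PEG 6000 that the later groups stood in. The series asks how the phosphatidylinositol signalling system acts in early drought stress, and the 0 min tissues are its starting state. The labels do not say how many plants a library holds, or whether replicates came from separate plants, so the p-values speak for these libraries and may reflect technical spread alone. Root libraries are given in the order of library x, replicate 2 and library y, because 2 of the 3 root columns share a name and carry no certain replicate number. Stem libraries are given in the order of replicates 1, 2 and 3.

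Roots take up water and mineral ions, and in their endodermis the Casparian strip, built on a scaffold of CASP membrane proteins and lignified by peroxidases and dirigent proteins, forces solutes through the cell membrane. Cotton roots are also known for gossypol and related terpenoids, defence compounds built from the mevalonate pathway through cadinene synthase. The young stem carries green outer tissue, a wax-covered epidermis, elongating cells and a vascular cambium that lays down xylem and phloem fibres.

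Levels are in FPKM (fragment counts scaled by gene length and by a factor of each library), and were tested as log2(FPKM + 1), root minus stem. That factor did not follow depth alone. A read in 1 kb was worth 0.0584 FPKM in root replicate 2 (17428959 reads) and 0.0511 FPKM in stem replicate 3 (17225127 reads). FPKM totals were 601212 to 651525 in the root libraries and 531805 to 563189 in the stem libraries. Genes with at least 1 FPKM in at least 3 of the 6 libraries were kept, 45275 of 75376 in the table, and a gene was called at a limma adjusted p under 0.05. The libraries held 16540503 to 21774520 reads counted in genes. Stem replicate 1 stood apart from the other stem libraries. Its log2 values correlated at 0.924 with stem replicate 2 and 0.930 with stem replicate 3, while those 2 correlated at 0.976 with each other and the root libraries at 0.972 to 0.979. It also lay nearer to root, with r of 0.819 to 0.821 against 0.749 to 0.771 for stem replicates 2 and 3. It was the highest stem library in 57.3% of the genes called higher in root and the lowest in 56.6% of those called higher in stem. Where a count of called genes changed by more than 1.5 times when 1 library was left out, the other count stands beside it. In bulk tissue, fewer cells of a type and less RNA per cell cannot be told apart.

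Of the 45275 genes, 8869 were higher in root (19.6%) and 8724 higher in stem (19.3%), together 38.9%. Without stem replicate 1 the counts were 10810 in root and 10689 in stem, and 8542 of the 8869 and 8405 of the 8724 were called again in the same direction. The groups did not overlap in 12343 genes that stood higher in root (27.3%) and 11525 that stood higher in stem (25.5%). The genes named below have root and stem libraries that did not overlap, except SCARECROW and 4 abundant genes among the closing observations. The directions were near balance in the values as deposited, and the median log2 difference of all tested genes was 0.01. With equal FPKM totals 7257 genes were higher in root and 10652 higher in stem, with a median of -0.1445. Large differences leaned to root: 1312 called genes were higher in root by at least 3 on the log2 scale and 760 were higher in stem by that much, and at a size of at least 5 there were 242 and 127. The A subgenome had 4294 root calls and 4282 stem calls among 22269 tested genes, the D subgenome 4566 and 4431 among 22930.

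The gene with the largest fitted difference toward root encodes a metallothionein, a small cysteine-rich protein that binds metals, Gohir.D13G229100 (D13, 64205949 to 64207757). It had 2666, 3979 and 2688 FPKM in root, against 6.32, 1.28 and 0.651 FPKM in stem. Every root library lay far above every stem library (log2 difference 9.98, SE 0.55, limma adjusted p = 3.22e-05). The metallothionein Gohir.A13G224300, on the chromosome of the same number in the A subgenome, was the most abundant described gene of root, at 5078, 7311 and 5204 FPKM in root, against 97.2, 14.2 and 23.4 FPKM in stem (log2 difference 7.44, SE 0.67, limma adjusted p = 0.000248). A dirigent-like gene on D05, Gohir.D05G380000, had 957, 1299.9 and 731 FPKM in root, and was listed at 0 in all 3 stem libraries (limma adjusted p = 3.6e-06). The Bet v I family gene Gohir.D10G177100, of a family of small proteins that bind hydrophobic ligands, had 701, 667 and 491 FPKM in root, and was listed at 0 in all 3 stem libraries. Of the water channels, Gohir.A03G007800 had 399, 774 and 407 FPKM in root, against 0.444, 0.0831 and 0.0476 FPKM in stem (log2 difference 8.73, SE 0.30, limma adjusted p = 6.36e-06), and Gohir.D03G163200 had 556, 735 and 596 FPKM in root, against 0.143, 0.241 and 1.24 FPKM in stem. An asparagine synthase, which stores nitrogen in asparagine and was chosen after its values were seen, Gohir.D09G088800, had 580.3, 801 and 362 FPKM in root, against 2.37, 0.592 and 0.52 FPKM in stem (log2 difference 8.10, SE 0.41, limma adjusted p = 2.31e-05).

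The stem end of the list was led by genes of the protease inhibitor and lipid transfer family, whose members carry lipids outside the cell. Gohir.D10G116300 (D10, 19209532 to 19210247) was listed at 0 in all 3 root libraries, against 2108, 930.4 and 1359 FPKM in stem (limma adjusted p = 4.35e-06). Its neighbour Gohir.D10G116200 was listed at 0 in all 3 root libraries, against 468, 642 and 672 FPKM in stem (limma adjusted p = 3.42e-06). The small subunit of Rubisco, Gohir.A07G173466, had 0, 0.0719 and 3.21 FPKM in root, against 723, 655 and 888 FPKM in stem (log2 difference -8.83, SE 0.55, limma adjusted p = 5.13e-05). Root library y held the highest root value of that gene. Gohir.D04G164900, of the Ole e I wall protein family, had 0, 0.0402 and 0 FPKM in root, against 80.7, 372 and 682 FPKM in stem (log2 difference -8.08, SE 0.71, limma adjusted p = 0.00022), with stem replicate 1 several times under the other stem libraries.

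**Figure D1:**
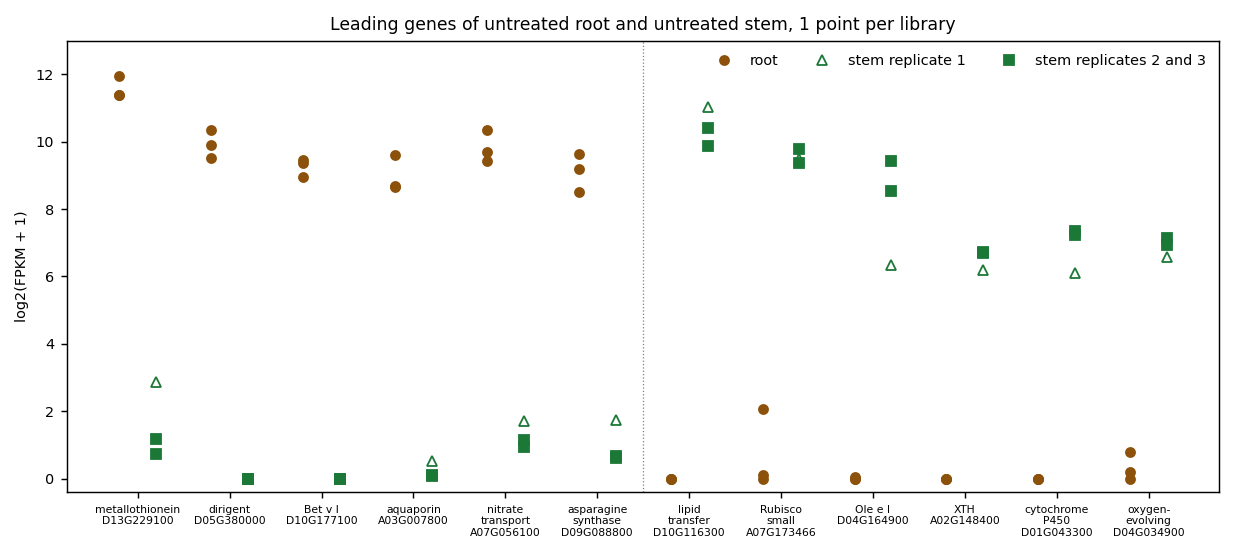
Levels of 12 leading genes, 6 higher in root and 6 higher in stem, as log2(FPKM + 1). Each point is 1 library at 0 min: filled circles are the 3 root libraries, the open triangle is stem replicate 1 and filled squares are stem replicates 2 and 3. In each of the 12 genes the root and stem libraries do not overlap, and stem replicate 1 is the lowest stem library for the Ole e I gene.

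Many genes of ion uptake stood high in root. High-affinity nitrate transport, the root system for scarce nitrate, showed this in most members. 7 of 7 genes passed the filter, 6 were called higher in root (85.7%) and 0 higher in stem (0%), with a median log2 difference of 6.27. The share of all tested genes called higher in root was 19.6%. The partner protein Gohir.A07G056100 (A07, 7487516 to 7488637), described as high-affinity nitrate transporter 3.2, had 834, 1315 and 683 FPKM in root, against 2.28, 0.899 and 1.22 FPKM in stem (log2 difference 8.56, SE 0.32, limma adjusted p = 8.46e-06). Its counterpart Gohir.D07G060400 had 503, 850.2 and 379 FPKM in root, against 5.22, 0.525 and 0.74 FPKM in stem (log2 difference 7.74, SE 0.58, limma adjusted p = 0.00011). Of the ammonium transporters, 15 of 27 passed the filter, 9 were called higher in root (60.0%) and 0 higher in stem (0%), with a median log2 difference of 1.84. At an unadjusted limma p under 0.05, 0 nitrate and 2 ammonium genes were higher in stem, and voom on recovered reads called 0 in either list. Gohir.D10G110900 had 7.02, 5.63 and 8.3 FPKM in root, against 0.199, 0.0478 and 0.0821 FPKM in stem (log2 difference 2.84, SE 0.18, limma adjusted p = 5.67e-05).

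Other transporter lists followed in part. The NRT1/PTR family was called in both directions, with 36 of 81 tested genes higher in root (44.4%) and 22 higher in stem (27.2%). The shares of all tested genes were 19.6% and 19.3%. Of phosphate transporters and SPX proteins, 40 of 63 passed the filter, 18 were called higher in root (45%) and 7 higher in stem (17.5%), with a median log2 difference of 0.54. The inorganic phosphate transporter Gohir.A09G058400 had 111, 98.3 and 70.1 FPKM in root, against 0.871, 0.102 and 0.163 FPKM in stem (log2 difference 6.11, SE 0.27, limma adjusted p = 1.4e-05). Of the potassium transporters and channels, 43 of 71 passed the filter, 15 were called higher in root (34.9%) and 6 higher in stem (14%), with a median log2 difference of 0.24, and the stem count was 3 without root replicate 2. The potassium transporter Gohir.D01G171300 had 195, 103 and 131 FPKM in root, against 0.102, 0 and 0.277 FPKM in stem (log2 difference 6.96, SE 0.25, limma adjusted p = 7.43e-06). Among sulfate transporters 10 of 21 were higher in root, and Gohir.A05G229600 had 34.5, 90.5 and 27.3 FPKM in root, and was listed at 0 in all 3 stem libraries. Nicotianamine synthases and ferric reductases, which make a metal chelator and reduce iron for uptake, had 9 of 14 higher in root and 1 higher in stem. The 1 stem call was lost without root library x, root replicate 2, stem replicate 2 or stem replicate 3. The nicotianamine synthase Gohir.A05G005400 had 29.5, 72.7 and 23.5 FPKM in root, against 0.245, 0 and 0 FPKM in stem (log2 difference 5.14, SE 0.40, limma adjusted p = 0.000131). The zinc transporter Gohir.A10G045700 had 86.1, 112 and 58 FPKM in root, against 0, 0.167 and 0.127 FPKM in stem (log2 difference 6.25, SE 0.25, limma adjusted p = 1.01e-05).

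Aquaporins, which pass water and small solutes through membranes, split between the tissues. 81 of 117 passed the filter, 31 were called higher in root (38.3%) and 21 higher in stem (25.9%), with a median log2 difference of -0.12. Summed over the family, the level was 5128, 7033 and 5915 FPKM in the root libraries and 2069.5, 6089 and 6650.4 FPKM in the stem libraries, so stem replicate 1 held less than the other stem libraries. The stem-higher Gohir.A01G212400 had 1.77, 0.353 and 1.44 FPKM in root, against 47, 404 and 502 FPKM in stem (log2 difference -6.68, SE 0.87, limma adjusted p = 0.00127). Metallothioneins split as well, with 4 of 11 tested higher in root and 3 higher in stem.

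Enzyme families that the route to cotton terpenoids draws on had more genes higher in root than higher in stem. HMG-CoA synthase and HMG-CoA reductase open the mevalonate pathway, prenyl diphosphate synthases join its units, terpene synthases close the carbon skeleton, and cytochromes P450 and dioxygenases oxidise it. The lists of these precursor enzymes and of dioxygenases were added after values had been seen, and their counts are a description. Of HMG-CoA synthases, 4 of 8 tested were higher in root and 0 higher in stem (1 at an unadjusted limma p under 0.05, 0 by voom). Gohir.D12G227000 had 77.2, 68.1 and 116 FPKM in root, against 5.09, 7.61 and 5.77 FPKM in stem (log2 difference 3.60, SE 0.25, limma adjusted p = 7.51e-05). Of HMG-CoA reductases, the step that limits the pathway, 10 of 17 were higher in root and 3 higher in stem, and the stem count was 1 without root library x, root replicate 2, root library y or stem replicate 3. Gohir.D02G193000 (D02, 67620551 to 67622980) was the most abundant of the D copies, at 623, 731 and 929.8 FPKM in root, against 34.2, 20.1 and 22.9 FPKM in stem (log2 difference 4.85, SE 0.29, limma adjusted p = 3.86e-05). Gohir.A12G012400, on another chromosome, had 143, 175 and 176 FPKM in root, against 0.0249, 0.084 and 0.024 FPKM in stem (log2 difference 7.30, SE 0.15, limma adjusted p = 3.42e-06). Prenyl diphosphate synthases, a family that serves many pathways, had 7 of 21 higher in root and 4 higher in stem, with a median log2 difference of 0.10. Of these, Gohir.D05G180000 had 85.3, 75.7 and 64.4 FPKM in root, against 8.83, 14 and 12.9 FPKM in stem (log2 difference 2.57, SE 0.22, limma adjusted p = 0.000186).

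Of the terpene synthases, 31 of 112 passed the filter, 26 were called higher in root (83.9%) and 4 higher in stem (12.9%), with a median log2 difference of 3.73. Gohir.A04G023700, described as (+)-delta-cadinene synthase and chosen after its values were seen, had 113, 79.7 and 85 FPKM in root, against 0, 0.569 and 0.599 FPKM in stem (log2 difference 6.09, SE 0.24, limma adjusted p = 9.83e-06). Beside it on A04, the terpene synthase Gohir.A04G023800 (A04, 4145402 to 4148401) had 511, 414 and 557 FPKM in root, against 1.19, 2.63 and 2.69 FPKM in stem (log2 difference 7.32, SE 0.26, limma adjusted p = 6.64e-06). The exceptions included Gohir.D09G007600, listed at 0 in all 3 root libraries, against 26.1, 53.5 and 41.5 FPKM in stem. Cytochromes P450, a family of oxygenases with many substrates, had 196 of 350 tested higher in root (56%) and 73 higher in stem (20.9%). Gohir.D13G137800, described as cytochrome P450 71D10, had 159.5, 286 and 317 FPKM in root, against 0.766, 0.43 and 1.61 FPKM in stem (log2 difference 7.03, SE 0.33, limma adjusted p = 1.86e-05). Against the direction of most P450 calls, Gohir.D01G043300 was listed at 0 in all 3 root libraries, against 68.1, 162 and 151 FPKM in stem. Of the 2-oxoglutarate-dependent dioxygenases, 105 of 185 were higher in root (56.8%) and 22 higher in stem (11.9%). Gohir.A13G205600 had 479.7, 473 and 282 FPKM in root, against 0.0825, 0 and 0 FPKM in stem (log2 difference 8.61, SE 0.24, limma adjusted p = 3.82e-06).

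Dirigent proteins steer the coupling of phenol radicals, and in cotton a member of the family acts on hemigossypol. Of the dirigent-like proteins, 61 of 119 passed the filter, 43 were called higher in root (70.5%) and 5 higher in stem (8.2%), with a median log2 difference of 2.47. Summed over the list, root libraries held 3698, 3763 and 2909 FPKM and stem libraries 175, 161 and 179 FPKM. Gohir.D05G379700, close to the leading dirigent gene on D05, had 442, 388 and 419 FPKM in root, against 0.214, 0 and 0.103 FPKM in stem (log2 difference 8.56, SE 0.15, limma adjusted p = 3.42e-06). Of the Bet v I family, 52 of 100 passed the filter, 36 were called higher in root (69.2%) and 7 higher in stem (13.5%), with a median log2 difference of 2.33. Gohir.A10G170000 was among the 5 most abundant described genes of root, at 1462, 1359.8 and 1351 FPKM in root, against 143, 15 and 27.2 FPKM in stem (log2 difference 5.11, SE 0.75, limma adjusted p = 0.00216), and stem replicate 1 was several times above the other stem libraries there. Sulfotransferases, which add sulfate to small molecules and were listed after values were seen, had 26 of 37 higher in root and 6 higher in stem. Germin-like and cupin proteins, found in cell walls, had 28 of 40 higher in root and 3 higher in stem. Their stem count was 7 without stem replicate 1, and 2 without root replicate 2, root library y or stem replicate 3.

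**Figure D2:**
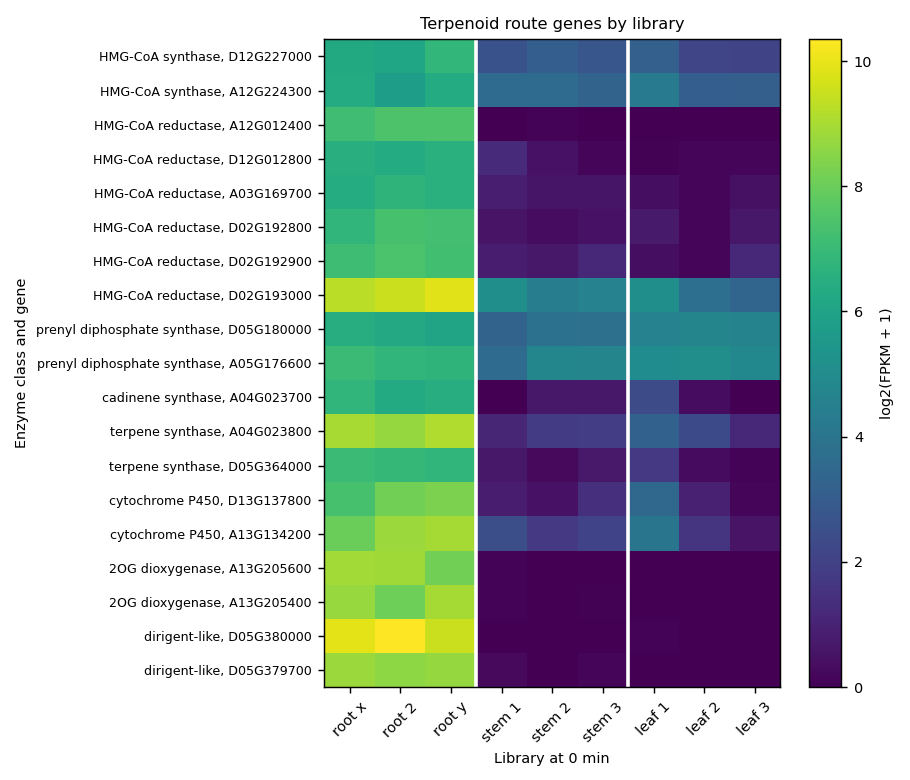
Levels of 19 genes from enzyme families that the terpenoid route draws on, as log2(FPKM + 1). Rows run by enzyme class from HMG-CoA synthase at the top to dirigent-like proteins at the bottom. Columns are the 3 root, 3 stem and 3 leaf libraries at 0 min. The genes were picked from members higher in root, so all 19 are brighter in the root columns than in the stem columns by choice. Members higher in stem are not shown. The HMG-CoA reductase A12G012400 and the dioxygenase A13G205600 are near 0 in stem and leaf.

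Several of these genes lay side by side. Runs of at least 4 neighbouring tested genes, all called in 1 direction and differing by at least 3 on the log2 scale, numbered 9, and all 9 were higher in root. HMG-CoA reductases formed a run of 4 on A03 (108231905 to 108382337) and a run of 4 on D02 (67589674 to 67622980). A run of 6 dirigent-like genes lay on D05 (65239107 to 65284884), a run of 5 Bet v I genes on A10 (99867694 to 100216108) and a run of 6 dioxygenases on A13 (108187786 to 108528094). Sulfotransferases formed a run of 5 on D03, multicopper oxidases a run of 5 on D05, proline-rich and hydrophobic seed proteins a run of 4 on D11, and NB-ARC resistance proteins a run of 7 on D11. In the A03 run Gohir.A03G169800 had 795, 829 and 1044 FPKM in root, against 142, 75.2 and 78.7 FPKM in stem, while its neighbour Gohir.A03G169700 had 83.5, 104 and 93.1 FPKM in root, against 0.845, 0.492 and 0.505 FPKM in stem. In the D02 run, Gohir.D02G192800 had 113, 159 and 150.3 FPKM in root, against 0.479, 0.281 and 0.402 FPKM in stem (log2 difference 6.66, SE 0.18, limma adjusted p = 3.73e-06). Stem levels thus ranged widely within a run, and root libraries lay above stem libraries in each of these genes. No source used here says how reads matching several near-identical copies were counted, which leaves the division of reads among members of a run uncertain.

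Barrier and wall genes of root were mixed by family. The CASP family, scaffold proteins of the Casparian strip and their relatives, was used to check the root label. Of its genes 71 of 105 passed the filter, 32 were called higher in root (45.1%) and 8 higher in stem (11.3%), with a median log2 difference of 0.28. Summed over the family, the libraries held 437, 469 and 568 FPKM in root, 287, 293 and 317 FPKM in stem, and 415, 464 and 479 FPKM in leaf. Root and leaf overlapped, so the family sum did not mark root alone. Gohir.D09G234600 (D09, 53244159 to 53246282) had 80.5, 78.1 and 125 FPKM in root, against 1.2, 1.14 and 0.883 FPKM in stem (log2 difference 5.49, SE 0.21, limma adjusted p = 9.1e-06). Gohir.A08G006500 had 16.3, 34.1 and 37.2 FPKM in root, against 0.247, 0.0831 and 0 FPKM in stem (log2 difference 4.69, SE 0.31, limma adjusted p = 6.8e-05). The family also had stem-higher members, such as Gohir.A01G040500 at 0, 0 and 0.128 FPKM in root, against 14.9, 45.3 and 58.6 FPKM in stem (log2 difference -5.08, SE 0.47, limma adjusted p = 0.000269). SCARECROW, a factor of the root endodermis that is active in shoots too, did not differ by this test in its 1 tested gene, Gohir.A09G213676, at 2.71, 3.25 and 3.67 FPKM in root, against 2.82, 4.26 and 4.31 FPKM in stem (log2 difference -0.18, SE 0.19, limma adjusted p = 0.5). Of the class III peroxidases, wall enzymes that oxidise phenols, 128 of 222 passed the filter, 67 were called higher in root (52.3%) and 19 higher in stem (14.8%), with a median log2 difference of 1.5. Gohir.A08G078800, described as peroxidase N, had 70.7, 177 and 61.6 FPKM in root, and was listed at 0 in all 3 stem libraries (limma adjusted p = 3.98e-05). A stem-higher peroxidase, Gohir.D03G144400, was listed at 0 in all 3 root libraries, against 128, 44.6 and 54.5 FPKM in stem. Laccases and other multicopper oxidases were near balance, with 31 of 82 higher in root and 25 higher in stem. Gohir.A05G249500 had 151, 158 and 123 FPKM in root, against 2.45, 0.0601 and 0.183 FPKM in stem, whereas Gohir.D05G256600 had 2.92, 3.81 and 2.85 FPKM in root, against 22.8, 129.5 and 116 FPKM in stem. Extensins, structural wall proteins, had 6 of 8 higher in root and 1 higher in stem.

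Photosynthesis genes separated the tissues the other way. Of the chlorophyll a/b binding proteins that harvest light, 43 of 59 passed the filter, 0 were called higher in root (0%) and 41 higher in stem (95.3%), with a median log2 difference of -3.10. Of the photosystem subunits, 72 of 215 passed the filter, 0 were called higher in root (0%) and 67 higher in stem (93.1%), with a median log2 difference of -4.17. Of the Rubisco subunits and activase, 0 of 12 were higher in root and 9 higher in stem. In these 3 lists 0 genes were higher in root at an unadjusted limma p under 0.05 or by voom. The share of all tested genes called higher in stem was 19.3%. Summed over the photosystem list, the libraries held 66.8, 79.3 and 123 FPKM in root, against 2348, 2822 and 3086 FPKM in stem, and 11722, 12027 and 9028 FPKM in leaf. The oxygen-evolving enhancer protein Gohir.D04G034900 had 0, 0.153 and 0.725 FPKM in root, against 93.6, 121 and 140.4 FPKM in stem (log2 difference -6.55, SE 0.25, limma adjusted p = 9.77e-06). The antenna protein CP29.1, Gohir.A01G227800, had 0.19, 0.101 and 0.512 FPKM in root, against 63.2, 86.1 and 104 FPKM in stem (log2 difference -6.06, SE 0.23, limma adjusted p = 8.01e-06). Chlorophyll synthesis followed, with 1 of 13 genes higher in root and 11 higher in stem. Protochlorophyllide reductase Gohir.D05G359200 was listed at 0 in all 3 root libraries, against 2.74, 9.11 and 10.9 FPKM in stem. Not all light-related genes stood this way. Of the light receptors, 5 of 16 tested were higher in root and 5 higher in stem, with 3 higher in root without any 1 library other than stem replicate 1. The blue light receptor phototropin-1, Gohir.A03G035900, had 0.569, 0.234 and 0.622 FPKM in root, against 10.6, 35.5 and 40.2 FPKM in stem (log2 difference -4.14, SE 0.47, limma adjusted p = 0.000697). CCT domain clock and CONSTANS-like factors had 10 of 68 higher in root and 19 higher in stem, with 6 in root without root replicate 2 and 18 in root without stem replicate 1. A B-box factor with a CCT motif, Gohir.D05G064900, was listed at 0 in all 3 root libraries, against 20.1, 29.2 and 28.6 FPKM in stem.

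The list of lateral organ factors was low in stem, unlike the photosynthesis lists. YABBY factors, which mark the lower side of leaves and other lateral organs, had 0 of 26 genes past the filter. They summed to 0.356, 0.199 and 0.252 FPKM in root and 2.08, 8.95 and 4.19 FPKM in stem, beside 263, 164 and 151 FPKM in leaf.

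Genes of the cuticle, the wax and cutin layer of aerial organs, were mostly higher in stem. Of ketoacyl-CoA synthases and WAX2-type enzymes, which lengthen and convert wax precursors, 36 of 74 passed the filter, 5 were called higher in root (13.9%) and 24 higher in stem (66.7%), with a median log2 difference of -1.37. The root count was 2 without root library x, 2 without root library y and 3 without stem replicate 3. Gohir.D08G097300 (D08, 22382853 to 22388692), described as ECERIFERUM 3 of alkane synthesis, had 0.414, 0.0423 and 0.0645 FPKM in root, against 104, 59.4 and 29.6 FPKM in stem (log2 difference -5.64, SE 0.43, limma adjusted p = 0.000117). Gohir.A08G093500, with a WAX2 domain, had 0.0666, 0.0663 and 0 FPKM in root, against 99.3, 49.3 and 24.1 FPKM in stem (log2 difference -5.59, SE 0.46, limma adjusted p = 0.000166). In both genes stem replicate 1 was the highest stem library. Lipid transfer and hydrophobic seed proteins were called in both directions, with 44 of 117 higher in root and 50 higher in stem.

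Several families of wall genes had more stem than root calls, but phenylpropanoid and monolignol enzymes, which make lignin units, did not. Of their 20 tested genes 6 were higher in root and 4 higher in stem, with a median log2 difference of 0.57, and 11 were higher in root without stem replicate 1. Of the fasciclin-like proteins, a family of wall arabinogalactan proteins with members active in fibres, 37 of 47 passed the filter, 0 were called higher in root (0%) and 27 higher in stem (73%), with a median log2 difference of -1.83. At an unadjusted limma p under 0.05, 1 was higher in root, and voom called 0. Gohir.A09G106800 had 3.85, 3.27 and 1.7 FPKM in root, against 121, 220.3 and 276 FPKM in stem (log2 difference -5.68, SE 0.36, limma adjusted p = 5.7e-05), and its mean in leaf was 5.9 ± 0.792 FPKM (SD, n = 3). Gohir.D09G103500 had 5.71, 6.55 and 5.11 FPKM in root, against 158, 185 and 214 FPKM in stem (log2 difference -4.78, SE 0.19, limma adjusted p = 9.55e-06). The cellulose synthase family had 19 of 68 higher in root and 31 higher in stem, among them Gohir.D09G225800, listed at 0 in all 3 root libraries, against 14.6, 20.4 and 19.6 FPKM in stem. Xyloglucan endotransglucosylases, which cut and rejoin wall xyloglucan, had 7 of 56 higher in root and 23 higher in stem. Their root count was 12 without stem replicate 1, 4 without stem replicate 2, and 3 without root library x or root replicate 2. Gohir.A02G148400 was listed at 0 in all 3 root libraries, against 71.4, 103 and 106 FPKM in stem (limma adjusted p = 4.04e-06). Of the expansins, which loosen walls, 7 of 44 were higher in root and 19 higher in stem, and the stem count was 12 without root library x or root library y. Expansin-A5, Gohir.A09G014500, had 0.0364, 0.0484 and 0 FPKM in root, against 9.07, 41.4 and 25.8 FPKM in stem (log2 difference -4.46, SE 0.49, limma adjusted p = 0.00057). Pectinesterases had 5 of 38 higher in root and 20 higher in stem, and the stem count was 13 without root library x and 12 without root library y. Gohir.A12G250000 had 1.77, 2.84 and 2.41 FPKM in root, against 60.4, 155 and 202 FPKM in stem (log2 difference -5.23, SE 0.43, limma adjusted p = 0.000173). Pectate lyases had 1 of 28 higher in root and 14 higher in stem.

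The KNOX and WUSCHEL-related lists of meristem and development factors had more stem than root calls. KNOX homeobox factors keep shoot meristem and cambium cells undifferentiated in their first class and act in differentiated tissue in their second. The KNOX list was not split by class. Of its genes, 38 of 44 passed the filter, 7 were called higher in root (18.4%) and 25 higher in stem (65.8%), with a median log2 difference of -2.02. Gohir.A06G027200 (A06, 2999142 to 3003992) had 0, 0.0215 and 0 FPKM in root, against 33.3, 28.7 and 39.98 FPKM in stem (log2 difference -5.11, SE 0.16, limma adjusted p = 5.07e-06). Its D counterpart by description, Gohir.D06G024500, had 0.0314, 0 and 0.106 FPKM in root, against 33.6, 26.8 and 35.6 FPKM in stem, and both were listed at 0 in all 3 leaf libraries. The root-higher member Gohir.D13G188500, described as knotted-1-like 3, had 11, 13.2 and 14.4 FPKM in root, against 1.65, 1.04 and 1.38 FPKM in stem (log2 difference 2.56, SE 0.17, limma adjusted p = 6.56e-05). WUSCHEL-related factors, stem cell regulators, had 8 of 8 tested genes higher in stem and 0 higher in root, the root count being 0 also at an unadjusted limma p under 0.05 and by voom. WUSCHEL-related homeobox 4, which in Arabidopsis acts in the vascular cambium, had, in Gohir.A05G204400, 2.44, 4.28 and 5.09 FPKM in root, against 13.5, 11.2 and 13.8 FPKM in stem (log2 difference -1.52, SE 0.23, limma adjusted p = 0.00256).

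WRKY and NAC factors, regulators of defence and of wall formation and ageing, were more often called in root. Of the WRKY factors, 185 of 239 passed the filter, 90 were called higher in root (48.6%) and 25 higher in stem (13.5%), with a median log2 difference of 0.90, and the stem count was 16 without root library x. Gohir.D12G178500 had 44.4, 51.5 and 34.2 FPKM in root, against 0.0982, 0 and 0 FPKM in stem (log2 difference 5.41, SE 0.18, limma adjusted p = 5.68e-06). In the other direction, Gohir.A06G180000, described as WRKY 70, had 4.1, 3.35 and 3.44 FPKM in root, against 186, 105 and 107 FPKM in stem (log2 difference -4.80, SE 0.25, limma adjusted p = 2.54e-05). Of the NAC factors, 139 of 299 passed the filter, 62 were called higher in root (44.6%) and 15 higher in stem (10.8%), with a median log2 difference of 0.77. Gohir.D08G253500 had 24.5, 32.8 and 24.2 FPKM in root, against 1.47, 0.549 and 0.275 FPKM in stem (log2 difference 4.04, SE 0.27, limma adjusted p = 6.91e-05). AP2/ERF factors had 77 of 260 higher in root and 38 higher in stem, with 116 root calls without stem replicate 1 and 24 stem calls without root library x. Basic helix-loop-helix factors were called about equally, 49 of 188 tested higher in root and 44 higher in stem, and with equal FPKM totals 36 and 52, which leans to stem. Their root count was 27 without root replicate 2 and 32 without stem replicate 2. Among them Gohir.A01G013500 had 76.5, 135 and 110.0 FPKM in root, against 4.57, 0.385 and 1.18 FPKM in stem (log2 difference 5.36, SE 0.50, limma adjusted p = 0.000298), and Gohir.D01G014800 had 97.5, 143 and 135 FPKM in root, against 7.57, 0.766 and 0.974 FPKM in stem. In both, stem replicate 1 lay above the other stem libraries.

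Hormone gene lists differed in direction, and those of auxin did so among themselves. Cytokinin dehydrogenases and isopentenyltransferases, which break down and make cytokinin, had 6 of 7 higher in root and 0 higher in stem, the stem count being 0 also at an unadjusted limma p under 0.05 and by voom. Cytokinin dehydrogenase 7, Gohir.A06G081700, had 20.1, 24.8 and 26.9 FPKM in root, against 0.82, 0.379 and 0.331 FPKM in stem (log2 difference 4.05, SE 0.19, limma adjusted p = 1.65e-05). GH3 enzymes, which link amino acids to auxin and jasmonate, had 15 of 30 higher in root and 2 higher in stem, and the stem count was 6 without stem replicate 1. Gohir.A07G139400 had 28.7, 32.2 and 25.9 FPKM in root, against 2.99, 1.43 and 0.626 FPKM in stem (log2 difference 3.57, SE 0.32, limma adjusted p = 0.000236). AUX/IAA repressors and auxin response factors had 17 of 144 higher in root and 49 higher in stem, and the root count was 11 without root replicate 2. Gohir.D07G214900, described as AUX28, had 3.97, 2.74 and 2.57 FPKM in root, against 107, 164 and 139 FPKM in stem (log2 difference -5.06, SE 0.22, limma adjusted p = 1.32e-05). Auxin carriers had 8 of 30 tested genes higher in root and 12 higher in stem, with 5 in root without stem replicate 3. The membrane transport protein Gohir.D07G178700 of that list had 0.194, 0.0774 and 0.0524 FPKM in root, against 16.7, 29.4 and 24 FPKM in stem (log2 difference -4.43, SE 0.22, limma adjusted p = 2.04e-05). SAUR proteins, small auxin responsive proteins, had 18 of 62 higher in root and 11 higher in stem, and Gohir.A12G141000 had 145, 199 and 201 FPKM in root, against 1.71, 1.34 and 0.33 FPKM in stem (log2 difference 6.47, SE 0.30, limma adjusted p = 1.66e-05).

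Core histones, cyclins and gibberellin-regulated peptides depended on stem replicate 1. Core histones, made as DNA is copied, had 3 of 102 tested genes higher in root and 2 higher in stem, against 5 and 47 without stem replicate 1. Without root replicate 2 there was 1 in each direction, and without root library y, stem replicate 2 or stem replicate 3 there were 2 in root and 1 in stem. Summed over the list, the libraries held 4549, 3355 and 3768 FPKM in root and 2561, 5880.0 and 5736 FPKM in stem, so stem replicate 1 lay under the root libraries and the other stem libraries above them. Cyclins, which drive the cell cycle, had 3 of 84 higher in root and 15 higher in stem, and 36 higher in stem without that library. Gibberellin-regulated peptides summed to 349.9, 229 and 212 FPKM in root and 413, 3110.4 and 1972 FPKM in stem. They had 9 of 22 tested genes higher in stem and 4 higher in root, with 14 higher in stem without stem replicate 1 and 3 to 5 without any 1 of the other libraries. The root count was 2 without stem replicate 3. The part of cell division in the other differences of stem replicate 1 was not tested.

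**Figure D3:**
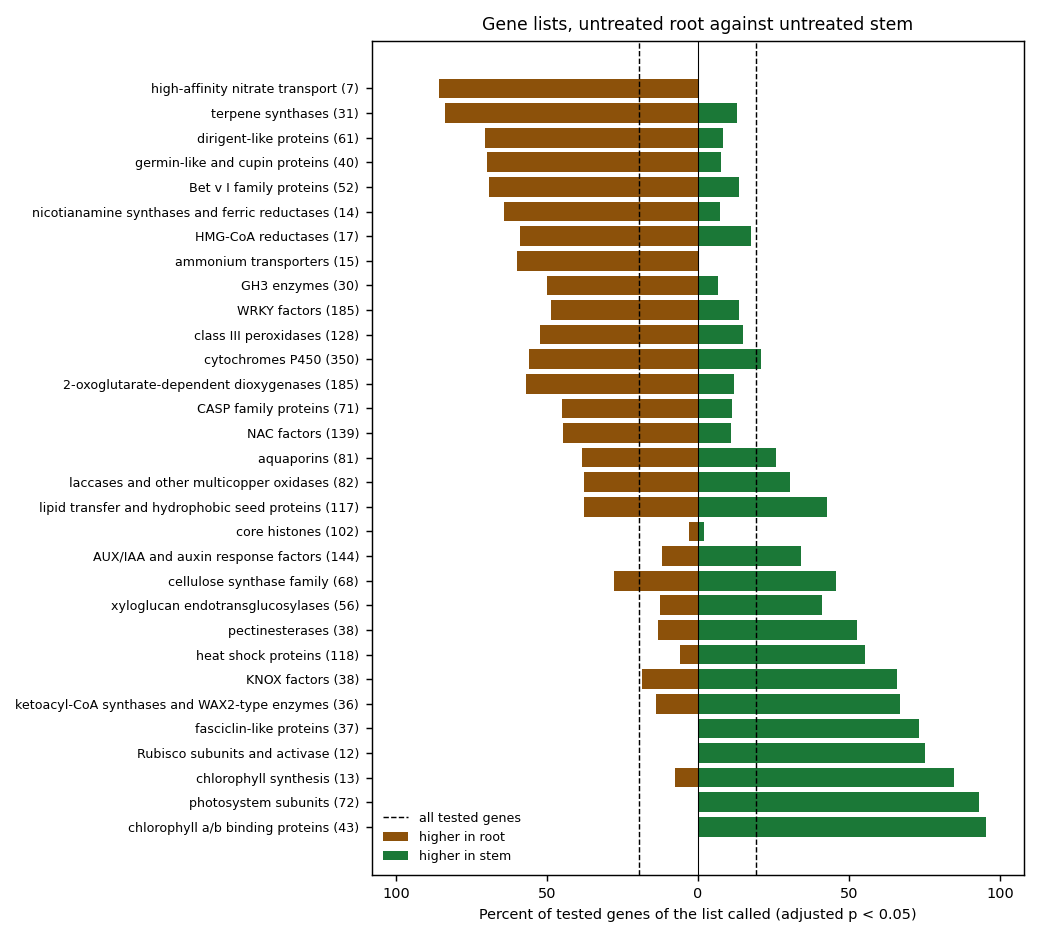
Share of the tested genes of 31 gene lists called at an adjusted p under 0.05, higher in root to the left and higher in stem to the right. Numbers in brackets are genes tested. Dashed lines mark the shares of all tested genes, 19.6% for root and 19.3% for stem. Among these 31 lists, which leave out WUSCHEL-related factors and cytokinin enzymes, high-affinity nitrate transport and terpene synthases reach furthest to the root side, chlorophyll a/b binding proteins and photosystem subunits furthest to the stem side, and core histones are under both lines.

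The phosphoinositide genes that the series is about were called in both directions in every class. In this system kinases phosphorylate phosphatidylinositol, phospholipase C cleaves the phosphorylated lipid to release diacylglycerol and an inositol phosphate, and diacylglycerol kinases and inositol phosphatases clear both. Of the phosphatidylinositol kinases, 70 of 100 passed the filter, 19 were called higher in root (27.1%) and 5 higher in stem (7.14%), with a median log2 difference of 0.17. The stem count was 2 to 3 without root library x, root replicate 2, stem replicate 2 or stem replicate 3. The phosphatidylinositol 4-phosphate 5-kinase Gohir.A04G070100 (A04, 64661614 to 64674873) had 9.23, 12.2 and 7.36 FPKM in root, against 1.5, 0.868 and 0.866 FPKM in stem (log2 difference 2.34, SE 0.22, limma adjusted p = 0.000296). Gohir.D04G108600, of the same enzyme class, had 7.05, 9.87 and 5.56 FPKM in root, against 0.68, 0.852 and 0.808 FPKM in stem (log2 difference 2.22, SE 0.21, limma adjusted p = 0.000305). Gohir.A06G143500, also of that class, had 0.31, 0.235 and 0.119 FPKM in root, against 3.2, 1.26 and 1.23 FPKM in stem (log2 difference -1.18, SE 0.27, limma adjusted p = 0.0128). Of phosphoinositide phospholipases C, 4 of 19 were higher in root (21.1%) and 2 higher in stem (10.5%), shares near or under those of all genes. The balance turned with scaling, to 2 in root and 4 in stem with equal FPKM totals and 3 in each with quantile scaling. The root count was 2 without root library x, root library y or stem replicate 3, and the stem count was 1 without any 1 root library or without stem replicate 3. Gohir.A05G088100 had 7.07, 5.11 and 5.51 FPKM in root, against 0.191, 0.141 and 0.069 FPKM in stem (log2 difference 2.60, SE 0.17, limma adjusted p = 6.37e-05). Gohir.A06G163500, a far more abundant member, had 28.9, 30.4 and 34.7 FPKM in root, against 60.2, 61.7 and 50.7 FPKM in stem (log2 difference -0.86, SE 0.18, limma adjusted p = 0.00885).

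Diacylglycerol kinases had 5 of 22 genes higher in root (22.7%) and 3 higher in stem (13.6%), with 10 higher in root without stem replicate 1. The shares of all tested genes were 19.6% in root and 19.3% in stem. Gohir.A07G069200 had 28, 23.5 and 16.6 FPKM in root, against 86.1, 80.7 and 52.5 FPKM in stem (log2 difference -1.64, SE 0.28, limma adjusted p = 0.00376). Phospholipases D had 6 of 20 higher in root and 3 higher in stem, and root replicate 2 decided much of this, since 2 were higher in root and 1 in stem without it. Without stem replicate 3 the stem count was 1. Among inositol synthases, oxygenases, phosphatases and kinases, 4 of 42 were higher in root (9.52%) and 12 higher in stem (28.6%). Without stem replicate 1 the root count was 7, and the stem count was 6 or 7 without root library x, root replicate 2 or stem replicate 2. The inositol polyphosphate 5-phosphatase Gohir.A04G079600 had 19.4, 13.8 and 21.1 FPKM in root, against 0.089, 0.169 and 0.3 FPKM in stem (log2 difference 3.99, SE 0.20, limma adjusted p = 1.95e-05). Myo-inositol-1-phosphate synthase Gohir.D03G043600, which makes inositol, had 32.9, 21.3 and 23.9 FPKM in root, against 38.5, 155 and 117 FPKM in stem (log2 difference -1.76, SE 0.51, limma adjusted p = 0.032), but leaving out any 1 library other than stem replicate 1 ended that call. Myo-inositol oxygenase Gohir.D06G068200 had 9.59, 8.3 and 6.27 FPKM in root, against 4.32, 0.949 and 0.42 FPKM in stem (log2 difference 1.87, SE 0.47, limma adjusted p = 0.0198), and its call ended without root library x, root replicate 2, stem replicate 2 or stem replicate 3.

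Genes close to absent from the other tissue differed in what leaf showed of them. Listed at 0 in all 3 stem libraries were 556 of the genes higher in root, and listed at 0 in all 3 root libraries were 257 of those higher in stem. Genes of at least 10 FPKM in every library of 1 tissue and under 1 FPKM in every library of the other numbered 420 for root and 244 for stem. Of the 420 root genes, 315 (75.0%) were also under 1 FPKM in all 3 leaf libraries at 0 min, and 5 (1.19%) were at 10 FPKM or more there. Of the 244 stem genes, 6 (2.46%) were under 1 FPKM in leaf and 204 (83.6%) were at 10 FPKM or more. Most genes that root had and stem lacked were thus low in leaf as well, and most that stem had and root lacked were shared with leaf. The leaf libraries were not used to choose these genes.

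**Figure D4:**
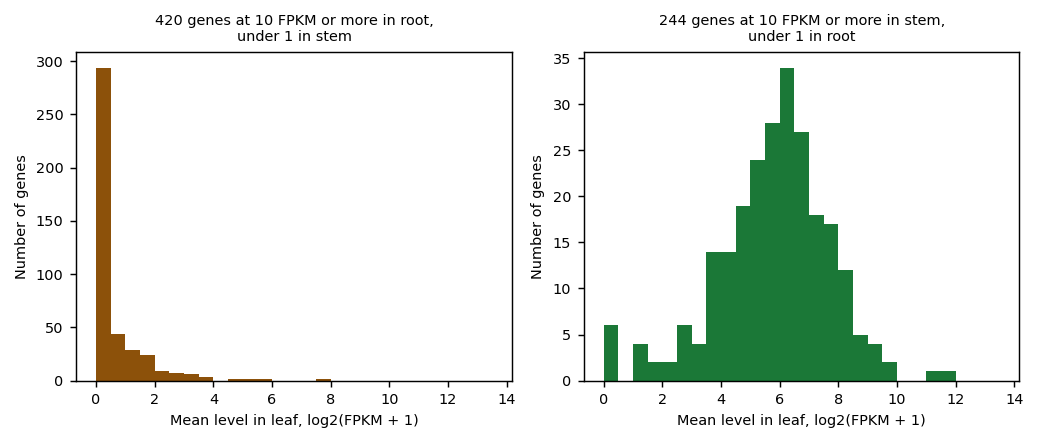
Mean level in the 3 leaf libraries at 0 min, as log2(FPKM + 1), of genes near absent from 1 of the tissues. The left panel counts the 420 genes of at least 10 FPKM in root and under 1 in stem, which pile up near 0 in leaf. The right panel counts the 244 genes of at least 10 FPKM in stem and under 1 in root, most of which are well above 0 in leaf. The count axes differ between panels.

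The same contrast could be read in other libraries of the series, root against stem after 10, 30, 60 and 180 min in 10% PEG 6000. These libraries share none with the comparison at 0 min, but the plants were treated. Their values were used as deposited, and no other scaling was run at these times. Root and stem differed in similar numbers of genes: 23.1, 20.3, 27.5 and 25.5% of tested genes were called higher in root at 10, 30, 60 and 180 min, and 24.3, 20.5, 25.8 and 20.3% higher in stem. Of the 8869 genes called higher in root at 0 min, 69.1, 57.1, 64.5 and 52.6% were called the same way at those times, and they made up 58.4, 56.1, 46.6 and 42.2% of the root calls of each time. Of the 8724 genes called higher in stem, 76.7, 67.2, 64.5 and 49.6% were called the same way, making up 60.6, 64.1, 48.9 and 49.3% of the stem calls. Genes that failed the filter at a later time count here as not called again. Those tested numbered 8288, 7940, 8163 and 7591 of the root genes and 8363, 8118, 7717 and 7356 of the stem genes. Calls in the opposite direction numbered 52, 66, 254 and 228 of the root genes and 33, 76, 202 and 451 of the stem genes. At all 4 later times 3062 of the root genes (34.5%) and 3260 of the stem genes (37.4%) were called the same way. For large differences the shares were higher: 961 of the 1312 genes higher in root by at least 3 on the log2 scale (73.2%) and 618 of the 760 genes higher in stem by that much (81.3%) were called the same way at all 4 later times.

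Among the lists, terpene synthases and photosystem subunits kept their sides. Terpene synthases had 24, 24, 23 and 17 root calls at 10, 30, 60 and 180 min, of 28, 29, 27 and 22 tested. Photosystem subunits had 66, 68, 67 and 67 stem calls and no root call. The heat shock proteins, chaperones that protect proteins under stress, did not. At 0 min 118 of 197 passed the filter, 7 were called higher in root (5.93%) and 65 higher in stem (55.1%), and the stem count was 38 without root replicate 2 and 43 without stem replicate 2. The root count was 4 without root library x or root replicate 2. At 10, 30, 60 and 180 min they had 8, 11, 44 and 52 root calls and 53, 47, 23 and 7 stem calls, and medians of -0.70, -0.62, 0.36 and 0.70. The CASP family, with more root than stem calls at 0 min, had 16, 9, 18 and 6 root calls and 18, 15, 22 and 24 stem calls at those times. FPKM totals at 60 min were 667904 to 723606 in root and 520670 to 542384 in stem. At 180 min they were 872790 to 1029700 in root and 480945 to 546023 in stem. How far scaling moves the later counts and medians was not tested. No untreated plants of the later times were analysed here, so PEG, the hour of the day and handling cannot be told apart.

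**Figure D5:**
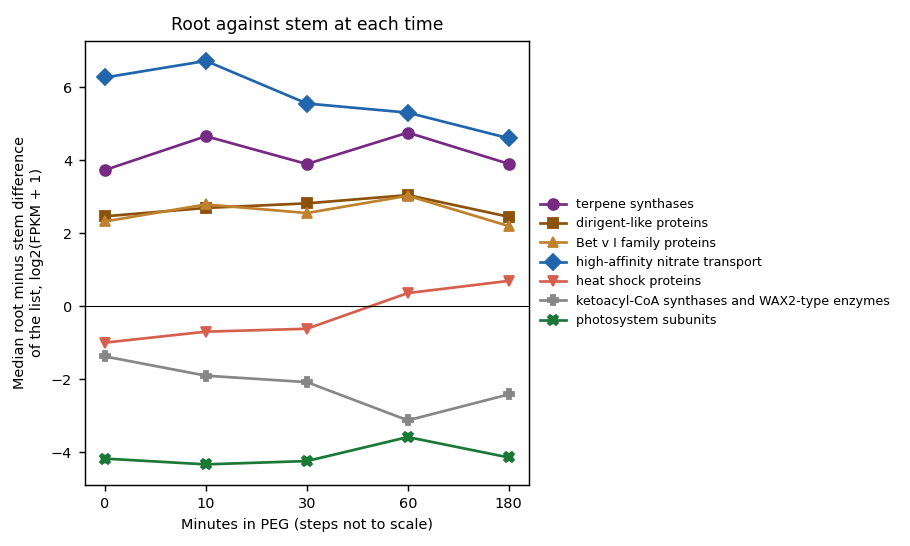
Median root minus stem difference of 7 gene lists, on the log2(FPKM + 1) scale, at 0, 10, 30, 60 and 180 min in PEG. Each time was taken from its own 3 root and 3 stem libraries, and later medians cover the list's genes tested at 0 min and at that time. Values above 0 are higher in root, in FPKM as deposited. Heat shock proteins are under 0 until 30 min and above 0 from 60 min, and the other 6 lists keep their side of 0.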

How the data were processed

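RNA-seq of root, stem and leaf was deposited as 1 table of FPKM values per gene and library, made by the authors. HISAT2 2.0.5 and featureCounts 1.5.0-p3 are listed per the submitters' processing notes, which do not assign their roles here, and no genome build is named in these sources. Coordinates and gene descriptions are those of the deposited table. Whole reads could be recovered from the FPKM values (100% within 0.01 read) and gave the depths. For the comparison, FPKM was taken as log2(FPKM + 1), a pseudocount of 1, in genes of at least 1 FPKM in at least 3 of 6 libraries, and tested with limma 3.58.1 in R 4.3.3 (trend and robust), with Benjamini-Hochberg adjustment over 45275 genes and a threshold of 0.05. SE is the limma standard error of the log2 difference. Fold values understate changes of low genes, and a gene at 0 in a whole tissue is given without one. Root columns were read by position, since 2 share a name.

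Genes named were those with the largest differences overall (8 each way) and in each list (up to 2 each way), members of neighbouring runs, and the 5 most abundant per tissue, of which a subset is printed; SCARECROW is a marker, and the asparagine synthase, the HMG-CoA synthase, the HMG-CoA reductase A12G012400, the prenyl diphosphate synthase, the cadinene synthase, the heat shock factors and the Hsp20 gene were chosen after their values were seen. Members and lists were chosen with earlier results of these data known. Lists were built from words in the gene descriptions. Alternatives covered pseudocount, filter, scaling, the libraries fitted and each library left out. Sequences were not used here. Later times were each fitted in their own 6 libraries.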

Additional observations from a re-analysis of the deposited data

Results flagged for a closer look

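Only the 129 named genes were searched here. In 7 of them the root minus stem difference at 180 min in PEG stood apart from that at 0 min and had the other sign. Among all genes called at 0 min, 228 root genes and 451 stem genes were called the opposite way at 180 min. The change was tested as a limma interaction over the 12 root and stem libraries of these times, a test added after the values were seen, and the genes were picked with those values in view. Over all 49903 genes of that test, 5293 had moved toward root at 180 min and 4269 toward stem. The test used the values as deposited, and no other scaling was run for it. FPKM totals leaned further to root at 180 min, at 872790 to 1029700 in root and 480945 to 546023 in stem. At 0 min they were 601212 to 651525 in root and 531805 to 563189 in stem. Positive values mean that the difference was further toward root at 180 min.

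Gohir.D13G133900, described as heat shock cognate protein 80, had a change of 9.94 (SE 0.70, limma adjusted p = 1.39e-05) on the log2(FPKM + 1) scale. At 180 min it averaged 210.4 ± 103 FPKM in root and 2.83 ± 1.54 FPKM in stem, and at 0 min 17.7 ± 12.8 FPKM in root and 299 ± 71.9 FPKM in stem (SD, n = 3 each). The 17.9 kDa class II heat shock protein Gohir.A07G020900 had a change of 9.80 (SE 0.66, limma adjusted p = 1.12e-05). At 180 min it averaged 331 ± 177 FPKM in root and 3.97 ± 1.61 FPKM in stem, and at 0 min 1.38 ± 1.09 FPKM in root and 33.6 ± 17.9 FPKM in stem (SD, n = 3 each). The Hsp20 family gene Gohir.D05G041500 had a change of 8.43 (SE 0.86, limma adjusted p = 0.000107). At 180 min it averaged 657 ± 250.2 FPKM in root and 23.4 ± 2.18 FPKM in stem, and at 0 min 6.56 ± 5.04 FPKM in root and 110.1 ± 94 FPKM in stem (SD, n = 3 each).

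Heat shock transcription factors, which switch on chaperone genes, were represented by 2 genes chosen after their values were seen. Gohir.A13G187500 had a change of 9.62 (SE 0.57, limma adjusted p = 6.07e-06). At 180 min it averaged 64.9 ± 19.2 FPKM in root and 0.782 ± 0.416 FPKM in stem, and at 0 min 2.5 ± 1.98 FPKM in root and 72.1 ± 34.1 FPKM in stem (SD, n = 3 each). Gohir.D13G194400 had a change of 8.70 (SE 0.68, limma adjusted p = 2.36e-05), with 59.5 ± 21.3 FPKM in root and 0.836 ± 0.126 FPKM in stem at 180 min. Its 0 min means were 2.95 ± 2.78 FPKM in root and 49.1 ± 30.7 FPKM in stem.

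Sucrose synthase Gohir.A13G189200, which splits sucrose, had a change of 8.96 (SE 0.86, limma adjusted p = 7.56e-05). At 180 min it averaged 1274 ± 471 FPKM in root and 13.8 ± 8.98 FPKM in stem, and at 0 min 3.09 ± 2.72 FPKM in root and 16.9 ± 3.19 FPKM in stem (SD, n = 3 each). Of the phosphoinositide lists, the diacylglycerol kinase Gohir.A07G069200 had a change of 3.03 (SE 0.33, limma adjusted p = 0.000146). At 180 min it averaged 13.1 ± 1.72 FPKM in root and 4.38 ± 0.296 FPKM in stem, and at 0 min 22.7 ± 5.73 FPKM in root and 73.1 ± 18 FPKM in stem (SD, n = 3 each). At 10 and 30 min it averaged 108 ± 17.1 and 181 ± 61.6 FPKM in root, against 139 ± 98.3 and 175 ± 46.4 FPKM in stem. In all 7 genes the difference at 0 min was called higher in stem and that at 180 min higher in root, which partly reflects which genes were named.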

How the results depend on the processing

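The 8869 root calls and 8724 stem calls at 0 min moved by more than 1.5 times under 2 of the alternatives: a filter at 5 FPKM gave 5863 and 4538, with fewer genes tested (24280), and an adjusted p under 0.01 gave 5444 and 5193. Leaving out 1 library gave 6423 to 10810 root calls and 6175 to 10689 stem calls, the most without stem replicate 1. Scaling to equal FPKM totals gave 7257 and 10652, a split that leans to stem, and moved the median log2 difference of all tested genes to -0.1445, against 0.01 as reported. That median was -0.0164 with no filter, 0.0933 with the 5 FPKM filter, 0.032 with median-ratio scaling, -0.0159 with quantile scaling, and 0.0022 to 0.013 with 1 library left out. Smaller shifts of the call counts came from a pseudocount of 0.1, no filter, fits of the 9 or the 45 libraries, limma without trend, and voom on reads recovered from FPKM (8876 and 8308). Of 124 named genes called, 2 lost the call under at least 1 of 16 alternatives (the inositol synthase and oxygenase above), and none of the 124 changed sign. Among the 129 named genes, the sign of those not called was not checked. Of 2656 list counts under alternatives, 2375 stayed within 1.5 times. Counts of 0 or 1 for fasciclins, Rubisco, chlorophyll synthesis, extensins and pectate lyases moved by at most 1 with a library left out. No paired analysis was possible because only 1 replicate number is known to be shared by root and stem at 0 min. At the later times a fit with a replicate block gave 9844 and 10189 calls at 10 min, 9764 and 9851 at 30 min, 12110 and 11431 at 60 min, and 10977 and 8924 at 180 min, but at none of these times did all 3 same-numbered pairs correlate above 0.1 (r of -0.152 to 0.452), so the numbers are not taken as pairs. Scaling was varied at 0 min only, not at the later times or in the test of 180 min against 0 min. Genes under 1 FPKM are set by few reads, and their folds are understated by the pseudocount.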

Other observations

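Some of the most abundant genes of both tissues did not pass the test. The dehydrins, water-binding proteins of drying tissue, Gohir.D05G184000 and Gohir.A05G181000 were high in both. Gohir.D05G184000 had 796, 971 and 994 FPKM in root, against 827, 942 and 824 FPKM in stem (log2 difference 0.09, SE 0.28, limma adjusted p = 0.832). Gohir.A05G181000 had 617, 846 and 765 FPKM in root, against 924, 1018 and 806 FPKM in stem (log2 difference -0.31, SE 0.29, limma adjusted p = 0.433). In the Lea5-A gene Gohir.A10G165300, at 646, 1866 and 1391 FPKM in root, against 1188, 309.8 and 360.1 FPKM in stem (log2 difference 1.22, SE 0.64, limma adjusted p = 0.175), and in the gene described as mitochondrial uncoupling protein 5, Gohir.D11G217400, at 942, 1356 and 1265 FPKM in root, against 1671, 741 and 687 FPKM in stem (log2 difference 0.31, SE 0.43, limma adjusted p = 0.604), stem replicate 1 lay above the other stem libraries. In all 4 the root and stem libraries overlapped. Dehydrins and other LEA proteins had 25 of 92 tested genes higher in root and 23 higher in stem.

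Glutathione S-transferases, which tag foreign and reactive compounds, had 44 of 112 tested genes higher in root and 24 higher in stem. Gohir.D09G157000 had 1305, 1419 and 1512 FPKM in root, against 143, 91.9 and 61.3 FPKM in stem (log2 difference 3.91, SE 0.35, limma adjusted p = 0.000228), and Gohir.A09G161400 had 580.1, 535 and 546 FPKM in root, against 10.4, 13 and 8.63 FPKM in stem (log2 difference 5.59, SE 0.21, limma adjusted p = 8.16e-06). NB-ARC resistance proteins, immune receptors, had 107 of 333 tested genes higher in root and 81 higher in stem, and Gohir.D11G297400 had 64.9, 91.8 and 62.5 FPKM in root, against 0.0474, 0.00999 and 0 FPKM in stem. SWEET transporters, which let sugars cross membranes, had 9 of 15 tested genes higher in root and 2 higher in stem, with 1 higher in stem when any 1 library other than stem replicate 1 was left out. The SWEET17 gene Gohir.A13G110100 had 23.9, 18.1 and 17.5 FPKM in root, against 0, 0 and 0.0522 FPKM in stem (log2 difference 4.34, SE 0.17, limma adjusted p = 8.81e-06). Carotenoid cleavage dioxygenases, a family with members in strigolactone and abscisic acid synthesis, had 11 of 17 tested genes higher in root and 2 higher in stem. Other lists of defence chemistry had more stem calls. Thaumatin-like proteins had 7 of 49 higher in root and 21 in stem (13 to 22 in stem with 1 library left out). Chitinases had 9 of 37 in root (5 to 10) and 16 in stem, and flavonoid enzymes 2 of 19 in root (0 to 3) and 6 in stem.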
